A study of Mus musculus with 2 samples.

Results

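The 10 genes described here carry the housekeeping work of Müller glia, the radial glia of the retina: Glul, Slc1a3, Aqp4, Kcnj10, Kcnj2, Rlbp1, Car2, Car14, Dkk3 and Clu. They were chosen by symbol for their known functions in Müller glia, with earlier results of these data known, and are 10 of the 31053 genes in the count tables, of which 21566 had a UMI (unique molecular identifier, a count of 1 captured RNA molecule). Both libraries hold single cells from the retina of C57BL/6 mice of wild type genotype, aged 17 days after birth, taken from the pooled retinas of 6 mice per group after papain digestion and selection with CD11b beads. The beads bind the surface protein CD11b, which marks myeloid cells such as microglia. In the OIR group (oxygen-induced retinopathy), pups and their nursing mother breathed 75% oxygen from day 7 to day 12 and were then kept in room air. The labels call the other group control and do not say how its pups were kept. With 1 library per group, differences could not be checked against replicates, and no test was made. Every interval below is a 95% interval that covers counting error alone.

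Müller glia span the whole depth of the retina. They clear glutamate released at synapses, carry potassium and water away from active neurons, buffer carbon dioxide and acid, bind retinoids for the visual cycle, and secrete proteins into the space around the cells. When the retina is injured they enter a state called gliosis, in which the intermediate filament gene Gfap is switched on.

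The class was set without the 10 genes, from 17 other Müller glia markers such as Sox9, a transcription factor gene. It took 259 cells out of 8582 in control (3.02%) and 338 out of 6136 in OIR (5.51%), with 2784521 and 4448788 UMIs and a median of 8996 and 10573.5 UMIs per cell. These cells are carried over in a myeloid selection, and their shares describe the libraries and not the retina. All 17 markers had UMIs in both libraries, and Sox9 stood at 538 and 522 CPM (UMIs scaled to a class total of 1e+06). The defining pigment epithelium genes Rpe65 and Lrat were at 0 in both, and the astrocyte gene Pax2 had 0 and 6 UMIs, while the 7 astrocyte markers summed to 127 and 300 CPM, with Gfap among them. The class differed in other ways too: mitochondrial genes took 7.27% of its UMIs in control and 5.20% in OIR, ribosomal protein genes 6.93% and 9.55%, and the 12 rod genes of a fixed list 3.41% and 4.07%. Cone markers summed to 76.5 and 404 CPM. The libraries shared 89 barcodes, 28 of them among the cells kept.

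Promoter sequences from RefSeq (build GRCm38.p6) matched 6 of the 10 genes: Glul, Slc1a3, Kcnj10, Kcnj2, Rlbp1 and Car14. The 250 bases before the start site are printed for 4 of them, since they pair 2 genes that were at least 2-fold lower in OIR (Glul and Rlbp1) with 2 whose difference was smaller (Slc1a3 and Car14). Capitals mark a match, on either strand, to ACGTG, the core of the hypoxia response element, or to ACAAAG, a core bound by SOX proteins. The sequences run 5′ to 3′ on the strand of the gene, at chr1:153899679-153899928 (plus strand) for Glul, chr7:79387028-79387277 (minus) for Rlbp1, chr15:8710808-8711057 (minus) for Slc1a3 and chr3:95904686-95904935 (minus) for Car14.
Glul: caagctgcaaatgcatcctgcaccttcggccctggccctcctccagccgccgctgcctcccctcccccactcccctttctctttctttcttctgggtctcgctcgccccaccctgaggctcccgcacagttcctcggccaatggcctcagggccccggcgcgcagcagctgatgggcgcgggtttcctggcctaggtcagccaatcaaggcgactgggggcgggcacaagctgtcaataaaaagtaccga
Rlbp1: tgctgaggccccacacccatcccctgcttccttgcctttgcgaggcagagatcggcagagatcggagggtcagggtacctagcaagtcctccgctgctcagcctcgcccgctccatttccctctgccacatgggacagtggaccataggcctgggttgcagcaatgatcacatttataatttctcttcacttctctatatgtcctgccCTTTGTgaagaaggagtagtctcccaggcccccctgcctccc
Slc1a3: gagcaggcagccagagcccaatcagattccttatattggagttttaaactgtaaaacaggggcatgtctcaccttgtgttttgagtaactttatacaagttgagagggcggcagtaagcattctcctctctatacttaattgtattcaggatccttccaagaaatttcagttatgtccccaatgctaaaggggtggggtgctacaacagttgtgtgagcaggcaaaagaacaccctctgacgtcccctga
Car14: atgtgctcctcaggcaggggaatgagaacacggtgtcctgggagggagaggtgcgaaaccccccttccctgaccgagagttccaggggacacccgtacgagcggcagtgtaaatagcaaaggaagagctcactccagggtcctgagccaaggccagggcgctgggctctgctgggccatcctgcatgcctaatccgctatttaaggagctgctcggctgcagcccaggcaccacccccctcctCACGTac
Of 32851 promoters of this length, 16.6% hold ACGTG and 16.5% hold ACAAAG. Among the 6 matched genes, ACGTG was found in Car14, 2 bases before the start site, and in Kcnj2, where it is read on both strands of 1 palindrome. ACAAAG was found in Rlbp1 alone, 36 bases before the start site. AACAAT, a second SOX core, was in none of the 6 and in 9.42% of all promoters. TATAAA, searched on either strand, was in 2 (Rlbp1 and Slc1a3) against 12.4% of all. In both it was read only on the strand opposite to the gene, as TTTATA in the printed sequence. The glucocorticoid response element, a longer palindrome, was in 1 (Car14) against 0.387%. Neither motif is in capitals. These matches describe letters in a window and were not tied to any measured difference.

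Müller glia-like cells of the OIR library carried less RNA of most of these genes. Of the 9 with at least 20 CPM in 1 library, 8 were at least 1.5-fold lower with an interval excluding no difference, and 0 were higher. Among all 6874 genes measured in the class, 12.5% were lower and 8% higher by the same rule. The median log2 ratio of OIR over control was −1.12 for the 9 genes and −0.04 for all genes. The 17 markers that defined the class had a median of −0.83, with 11 lower and 1 (Vim) higher, so these markers were lower as well. Slc1a3 was the member nearest to its control level, and Kcnj2 was almost absent from the class. With doublet calls kept, 5 of the 9 were lower (Glul, Aqp4, Kcnj10, Rlbp1 and Car2).

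**Figure D1:**
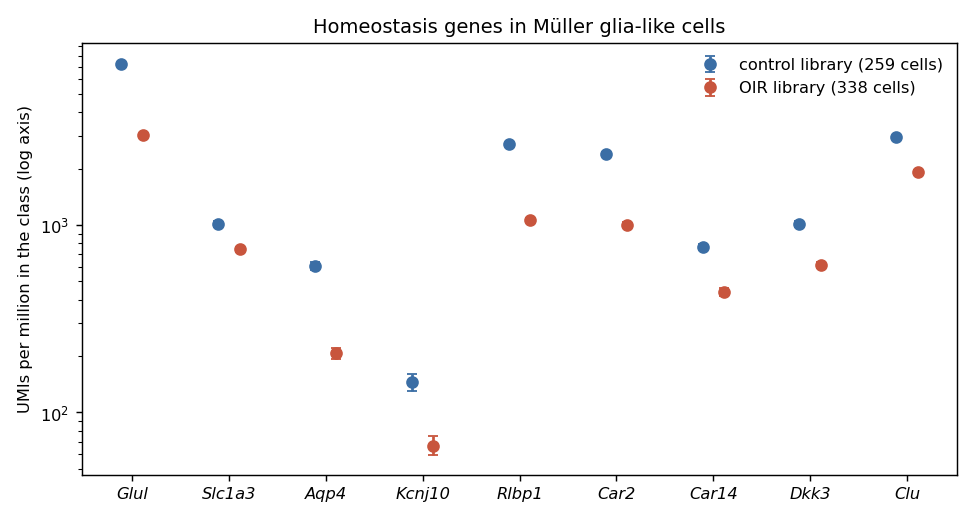
Level of 9 genes in Müller glia-like cells of the control library (blue, 259 cells) and the OIR library (red, 338 cells), in CPM on a log axis, with exact Poisson 95% intervals. Every red point lies under its blue neighbour, with the widest gap for Aqp4 (604 and 207) and the narrowest for Slc1a3 (1008 and 742); Kcnj2, with 1 and 0 UMIs, is not drawn.

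Glutamate is handled by 2 of the genes. Slc1a3 (ENSMUSG00000005360, chr15:8634124-8710764, minus strand) encodes GLAST, the transporter that takes glutamate into the cell. Glul (ENSMUSG00000026473, chr1:153899944-153909723, plus strand) encodes glutamine synthetase, which turns that glutamate into glutamine. Control cells had 7210 CPM of Glul (interval 7110 to 7310) and OIR cells 3004 CPM (2954 to 3056), a log2 ratio of −1.26 (−1.29 to −1.23). The intervals lie far apart, and the OIR level was 2.4-fold lower. Slc1a3 stood at 1008 CPM (971 to 1046) and 742 CPM (716 to 767), a log2 ratio of −0.44 (−0.52 to −0.37). Its intervals do not overlap either, but the 1.36-fold difference is under the 1.5-fold limit. The enzyme and its transporter therefore stood in different proportion: there were 7.15 Glul UMIs per Slc1a3 UMI in control and 4.05 in OIR.

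Other genes of glutamate and transmitter uptake, from a list of 21, shifted less. Of 13 measured, 4 were lower and 1 was higher, with a median log2 ratio of −0.32. Abat, which breaks down GABA, was at 96.6 and 56.2 CPM (log2 −0.78). The GABA transporter gene Slc6a11 was at 242 and 142 CPM (−0.77), and Slc38a2, a neutral amino acid transporter, at 98.0 and 58.9 CPM (−0.74). The higher gene was Slc1a4, named after its value was seen. These differences were smaller than that of Glul.

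Water and potassium leave through channels on the Müller cell's end-feet. Aqp4 (ENSMUSG00000024411, chr18:15389496-15410982, minus strand), the water channel, had the largest difference of the 9 genes: 604 CPM (575 to 633) against 207 CPM (193 to 220), a log2 ratio of −1.55 (−1.66 to −1.43). Kcnj10 (ENSMUSG00000044708, chr1:172341210-172374085, plus strand), the main inwardly rectifying potassium channel of these cells, stood at 145 CPM (131 to 160) and 66.5 CPM (59.2 to 74.6). Its log2 ratio was −1.12 (−1.34 to −0.90), the widest interval of the 9, since it rests on 403 and 296 UMIs. Set against Slc1a3, Aqp4 went from 0.599 to 0.279 UMIs per Slc1a3 UMI, and Kcnj10 from 0.144 to 0.0897. Both channel genes were therefore lower relative to the glutamate transporter as well as to the total.

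Kcnj2 (ENSMUSG00000041695, chr11:111066164-111076821, plus strand), a second inwardly rectifying channel, had 1 UMI in control Müller glia-like cells and 0 in OIR. A count of 0 allows up to 0.674 CPM in OIR, and no fold is given. Its RNA lay in microglia-like cells instead, which had 107 control UMIs (16.6 CPM) and 4 OIR UMIs (2.36 CPM). The log2 ratio was −2.81 (−4.72 to −1.42). Kcnj2 is under 20 CPM in both libraries and was not counted as measured. Different clusters hold most microglia-like cells in the libraries. In the cluster led by Selplg, with 661 control and 113 OIR cells, the level was 17.4 CPM (14.2 to 21.0) and 2.11 CPM (0.255 to 7.61). The Ftl1-led cluster, with 160 and 274 shallower cells, had 1 and 2 UMIs. An unnamed cluster led by S100a8, Hmox1 and Spp1, with 55 and 314 cells, had 12.2 CPM (4.89 to 25.1) and 6.84 CPM (4.81 to 9.42). The OIR level was lower beyond counting error in the Selplg-led cluster, whereas the intervals overlap in the S100a8-led cluster.

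Of 26 other genes for water and potassium, 16 were measured, 4 lower and 1 higher, with a median log2 ratio of −0.37. The sodium pump subunit gene Atp1b3 (322 and 161 CPM, log2 −0.999) was lower. Slc12a2, which brings sodium, potassium and chloride into the cell, was higher at 32.3 and 54.4 CPM (0.75). Kcnk1 and Sntb1, named after their values were seen, were lower too.

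Rlbp1 (ENSMUSG00000039194, chr7:79374870-79387048, minus strand) encodes CRALBP, a retinoid-binding protein of the visual cycle. Its level was 2688 CPM (2628 to 2750) and 1062 CPM (1032 to 1092), a log2 ratio of −1.34 (−1.39 to −1.29). This 2.53-fold difference was second to that of Aqp4. Of 18 other retinoid genes, 8 were measured and 3 were lower, with a median of −0.44. Rdh11, a retinol dehydrogenase gene, was at 24.8 and 13.7 CPM (−0.85), and Degs1 at 75.8 and 46.1 CPM (−0.72). The third lower gene was Cyp26a1, named after its value was seen.

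Carbonic anhydrases turn carbon dioxide and water into bicarbonate and acid. Car2 (ENSMUSG00000027562, chr3:14886273-14900770, plus strand) encodes a cytosolic form, and Car14 (ENSMUSG00000038526, chr3:95897768-95904691, minus strand) a form on the cell membrane. Car2 stood at 2378 CPM (2321 to 2436) and 1002 CPM (973 to 1032), a log2 ratio of −1.25 (−1.30 to −1.19). Car14 stood at 763 CPM (731 to 796) and 439 CPM (420 to 459), a ratio of −0.80 (−0.89 to −0.71). Both were lower, and the intervals of the 2 ratios do not overlap. Among 14 other acid-base and lactate genes, 5 were measured, 2 higher and 1 lower, with a median of 0.52. Slc16a3, a lactate exporter, was at 8.62 and 38.4 CPM (log2 2.16) and the bicarbonate transporter gene Slc4a4 at 13.3 and 45.0 CPM (1.76). Slc16a1, another lactate transporter gene, was lower at 311 and 180 CPM (−0.79).

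The secreted proteins had smaller differences. Dkk3 (ENSMUSG00000030772, chr7:112116017-112159057, minus strand), of the Dickkopf family of Wnt modulators, stood at 1014 CPM (977 to 1052) and 615 CPM (592 to 638), a log2 ratio of −0.72 (−0.80 to −0.65). Clu (ENSMUSG00000022037, chr14:65968483-65981547, plus strand) encodes clusterin, a secreted chaperone found in lipoprotein particles. It stood at 2932 CPM (2868 to 2996) and 1925 CPM (1884 to 1966), a log2 ratio of −0.61 (−0.65 to −0.56). Clu was only just past the 1.5-fold limit, at 1.52-fold, and was not past it when the class sums were scaled by median of ratios. Of 16 related genes, 7 were measured, 2 lower and 1 higher, with a median of −0.11. The lower ones were the lipid transporter gene Abca8a (465 and 184 CPM, log2 −1.34), which is also a marker of the class, and Apoe (14034 and 7273 CPM, −0.95), an apolipoprotein gene. The cholesterol exporter gene Abca1 was higher, at 41.3 and 65.2 CPM (0.66).

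Rod RNA moved with these differences. Rods are the main cells of both libraries, and the median Müller glia-like cell had 0.159% of its UMIs in the rod list in control and 1.78% in OIR. If the rod list comes with the composition of the rod-like class, rod RNA made up 36.7% of the class sum in control and 51.9% in OIR. The rod list took 3.41% and 4.07% of UMIs in the class, and 9.29% and 7.84% in rod-like cells. The estimate thus rose through both its higher share in the class and its lower share in rod-like cells. With that profile taken out, the log2 ratios were −0.88 for Glul, −1.16 for Aqp4, −0.73 for Kcnj10, −0.95 for Rlbp1 and −1.06 for Car2. They were −0.05 for Slc1a3, −0.41 for Car14, −0.33 for Dkk3 and −0.23 for Clu. The first 5 stayed past 1.5-fold and the last 4 did not.

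A second measure used only cells with at most 1% of UMIs from the rod list, 160 in control and 136 in OIR. In these cells Glul stood at 10098 and 5408 CPM (log2 −0.90, −0.95 to −0.85) and Aqp4 at 865 and 383 CPM (−1.18, −1.36 to −0.999). Kcnj10 was at 199 and 106 CPM (−0.90), Rlbp1 at 3673 and 1799 CPM (−1.03) and Car2 at 3241 and 1483 CPM (−1.13). Dkk3 (−0.52), Clu (−0.38), Car14 (−0.29) and Slc1a3 (−0.19) were within 1.5-fold. The same 5 of the 8 lower genes were thus at least 1.5-fold lower by both measures, and they are the 5 that were at least 2-fold lower in the whole class.

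**Figure D2:**
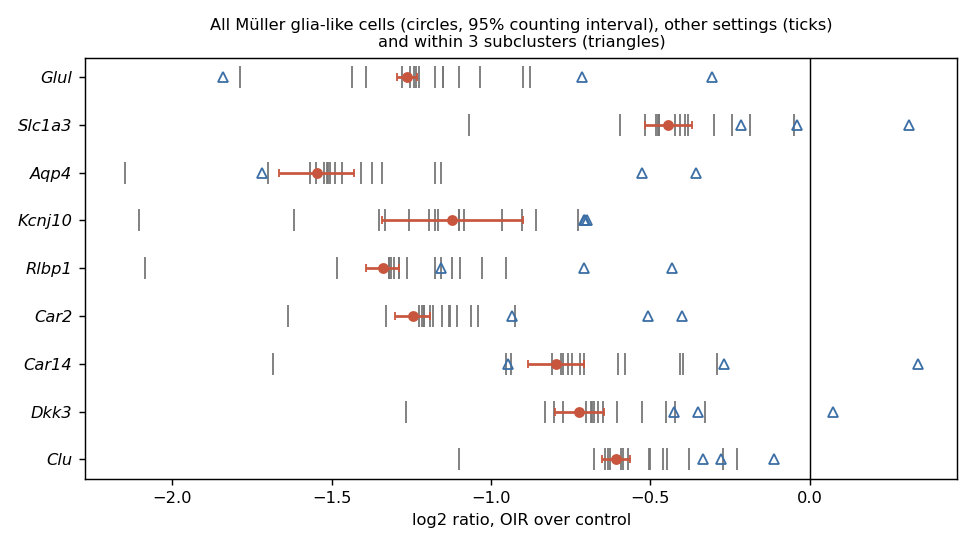
Log2 ratio of OIR over control for 9 genes in all Müller glia-like cells (circles with 95% counting intervals), under other settings (grey ticks) and within 3 subclusters (triangles). Glul, Aqp4, Kcnj10, Rlbp1 and Car2 lie left of 0 throughout, while Slc1a3, Car14 and Dkk3 each have 1 triangle right of 0, from the subcluster led by Enpp2.

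The class was not uniform, and different parts of it hold most cells of each library. Müller glia-like cells were clustered again without the 10 genes, and 2 subclusters led by rod genes (50 control and 72 OIR cells) and by cone genes (10 and 58) were left out of the class. A subcluster led by Enpp2 held 139 of the 259 control cells and 22 OIR cells. One led by Lcn2, with Timp1, Ccl2 and Gfap among its leading genes, held 2 control and 106 OIR cells. One led by Ifit3, with H2-Ab1, Cmpk2 and the hypoxia gene Bnip3 among its leading genes, held 0 and 67. H2-Ab1 was also a leading gene of the unnamed S100a8-led cluster. Subclusters led by C1qc (57 and 28 cells), Wfdc1 (45 and 51) and Hbb-bs (16 and 64) held cells of both. The Hbb-bs-led cells were shallow, with a median of 1867.5 and 1673 UMIs per cell. Their leading genes include Hbb-bs, an erythroid marker, and Ttr, a pigment epithelium marker. The C1qc-led cells also had C1qa and Ctss, genes of microglia, among their leading genes, and 7.34% and 6.80% of UMIs in the rod list.

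All 9 genes were highest in control in the Enpp2-led subcluster among those with at least 30 cells in that library. There, Glul stood at 10420 CPM, against 4493 CPM in the C1qc-led and 5222 CPM in the Wfdc1-led subcluster. Aqp4 stood at 924, 330 and 459 CPM in the same order. The markers that defined the class were also highest in the Enpp2-led control cells, with sums of 13918, 6099 and 11161 CPM in that order. The median depth was 8516, 20606 and 8733 UMIs per cell. Whether the C1qc-led cells were mixtures of cells was not tested. In OIR, the Lcn2-led and Ifit3-led subclusters were close to each other: Glul was at 3081 and 3392 CPM, Aqp4 at 195 and 205 CPM, Kcnj10 at 73.0 and 71.4 CPM, and Rlbp1 at 983 and 954 CPM. For Aqp4, Kcnj10, Rlbp1 and Car2 (908 and 899 CPM) the intervals of those 2 subclusters overlap. Slc1a3 (816 and 610 CPM), Dkk3 (581 and 456 CPM) and Clu (2116 and 1675 CPM) were higher in the Lcn2-led cells, beyond counting error. Glul was higher in the Ifit3-led cells, with intervals of 2991 to 3172 and 3290 to 3496 CPM. The rod list took 2.30% of UMIs in the Lcn2-led and 5.68% in the Ifit3-led OIR cells. The markers that defined the class summed to 9012 and 6824 CPM in the same order. The median depth was 10573.5 UMIs per cell in the Lcn2-led and 18839 in the Ifit3-led OIR cells. Whether the Ifit3-led cells were mixtures of cells, and the part of rod RNA in these differences, was not tested.

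Within the Enpp2-led and C1qc-led subclusters the ratios were nearer to 0 than in the whole class for each of the 9 genes. In the Wfdc1-led cells this held for 6 of the 9, while Glul, Aqp4 and Car14 differed more. In the Enpp2-led subcluster, whose 22 OIR cells are under the 30 set for a level, Glul was at 10420 and 8421 CPM (log2 −0.31, −0.39 to −0.22) and Aqp4 at 924 and 721 CPM (−0.36, −0.67 to −0.06). Rlbp1 (−0.43), Car2 (−0.51) and Kcnj10 (−0.70, −1.45 to −0.03) were lower too, and 1 gene, Kcnj10, was past 1.5-fold. Slc1a3 was higher there, at 1427 and 1771 CPM (log2 0.31, 0.11 to 0.50), as was Car14, at 1191 and 1507 CPM (0.34, 0.12 to 0.55). Dkk3 (0.07, −0.15 to 0.29) and Clu (−0.11, −0.24 to 0.01) had intervals that include 0. The rod list took 0.496% and 0.346% of UMIs in this subcluster, so here rod RNA was not higher in OIR.

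In the C1qc-led subcluster 3 genes were past 1.5-fold: Glul (−0.72), Kcnj10 (−0.71) and Rlbp1 (−0.71), while Aqp4 was at −0.53. In the Wfdc1-led subcluster 6 were, led by Glul, at 5222 and 1457 CPM (log2 −1.84, −1.94 to −1.74), and Aqp4, at 459 and 140 CPM (−1.72, −2.06 to −1.38). Slc1a3 stood at 863 and 840 CPM there (−0.04, −0.22 to 0.14). The rod list took 1.46% and 3.71% of the UMIs of Wfdc1-led cells. Glul, Aqp4, Kcnj10, Rlbp1 and Car2 had ratios under 0 in all 3 subclusters, with intervals that exclude 0.

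**Figure D3:**
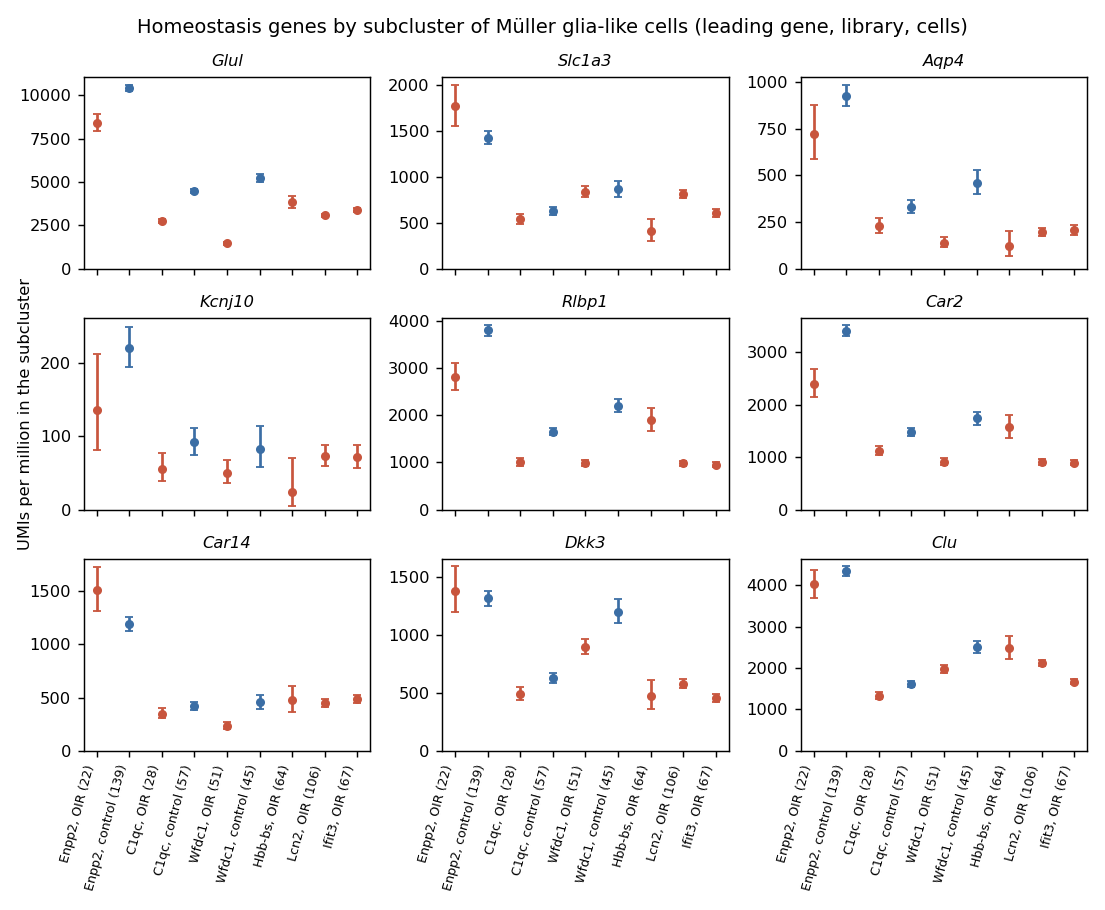
Level of 9 genes in each subcluster of Müller glia-like cells with at least 20 cells in a library, in CPM with exact Poisson 95% intervals (control blue, OIR red; the leading gene and the number of cells are on the horizontal axis). The Enpp2-led cells stand above the others in both libraries, with Glul at 10420 and 8421, and the Lcn2-led and Ifit3-led OIR cells lie near each other, with Glul at 3081 and 3392.

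The difference was also seen cell by cell. Cells were thinned to 1500 UMIs, which left out 10 control and 30 OIR cells, and 249 and 308 cells were compared. Glul had a UMI in 97.2% of control cells (exact Clopper-Pearson interval 94.3 to 98.9) and 86.7% of OIR cells (82.4 to 90.3), and before thinning in 100% and 95.3%. Its median was 12 UMIs in control and 4 in OIR, and the 10th and 90th percentiles were 3 and 20 against 0 and 13. Aqp4 had a UMI in 55.4% (49.0 to 61.7) and 29.9% (24.8 to 35.3), and Kcnj10 in 23.3% (18.2 to 29.0) and 8.77% (5.86 to 12.5); without thinning these were 89.96% and 69.2%, and 70.3% and 42.0%. For Glul, the 10th percentile, the median and the 90th percentile were thus all lower in OIR, and the ranges of the libraries overlapped.

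Rod-like cells, which should lack these channels, give the background of free RNA at the same thinned depth. They had a Glul UMI in 7.33% and 7.73% of cells, an Aqp4 UMI in 0.140% and 0.236%, and a Kcnj10 UMI in 0.174% and 0.0590%, from 2866 control and 1694 OIR cells (3553 and 1445 shallower ones were left out; the median depth of all rod-like cells was 1414 and 1625 UMIs). For Car2 the rod-like share was much higher, at 33.9% and 36.9%, and for Clu it was 3.42% and 7.26%. Shares in Müller glia-like cells were above these. They were 96.8% and 79.2% for Rlbp1, 96.8% and 75.3% for Car2, 65.9% of cells and 154 of 308 cells for Car14, 77.1% and 58.1% for Dkk3, 75.5% and 67.2% for Slc1a3 and 94.8% and 89.3% for Clu; unthinned shares were 99.6% and 96.2%, 99.2% and 94.7%, 93.8% and 82.5%, 95.8% and 88.2%, 95.8% and 88.5%, and 98.1% and 94.1%. Kcnj2 had a UMI in 0 thinned cells of either library, which allows a share of up to 1.20% and 0.974%. For Slc1a3 and Clu the intervals of the libraries overlap, at 69.7 to 80.7 against 61.7 to 72.4 and 91.2 to 97.2 against 85.3 to 92.5.

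In each library 6 classes had at least 50 cells, with amacrine-like cells among them in control only and border macrophage-like cells in OIR only. Across these classes, 9 of the 10 genes were highest in Müller glia-like cells in both libraries. The exception was Kcnj2, which was highest in microglia-like cells, in OIR on 4 UMIs (2.36 CPM, 0.643 to 6.04). The 30 amacrine-like OIR cells, under the 50 set, had 5 Kcnj2 UMIs (15.0 CPM, 4.87 to 35.0). In rod-like cells the median member stood at 0.535% of its Müller level in control and 1.0% in OIR, and the median of the 17 class markers at 0.479% and 1.02%. In cone-like cells these were 3.108% and 6.95% for the members and 3.12% and 6.45% for the markers. In photoreceptor-like cells, members and markers thus stood at similar shares of their Müller level. The Müller level of most members and markers was lower in OIR, which by itself raises these shares.

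Some levels outside Müller glia stood above that background. Car2 was at 295 and 342 CPM in rod-like cells, 376 and 430 CPM in cone-like cells and 571 and 392 CPM in bipolar-like cells, up to 42.9% of its Müller level. Glul was at 758 CPM (10.5% of its Müller level) in control microglia-like cells and 445 CPM (14.8%) in OIR, where the markers' median was 0.699% and 1.01%. In control amacrine-like cells Car2 was at 761 CPM and Dkk3 at 217 CPM. Kcnj10 was at 13.8 CPM in OIR border macrophage-like cells, a class of 78 cells marked by Pf4 and Mrc1. In 28 control and 42 OIR pigment epithelium-like cells, fewer than the 50 set for a class, Clu (7533 and 7060 CPM) and Car14 (1414 and 1208 CPM) were above their Müller level in both libraries, and Rlbp1 (1886 and 1619 CPM) above it in OIR.

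**Figure D4:**
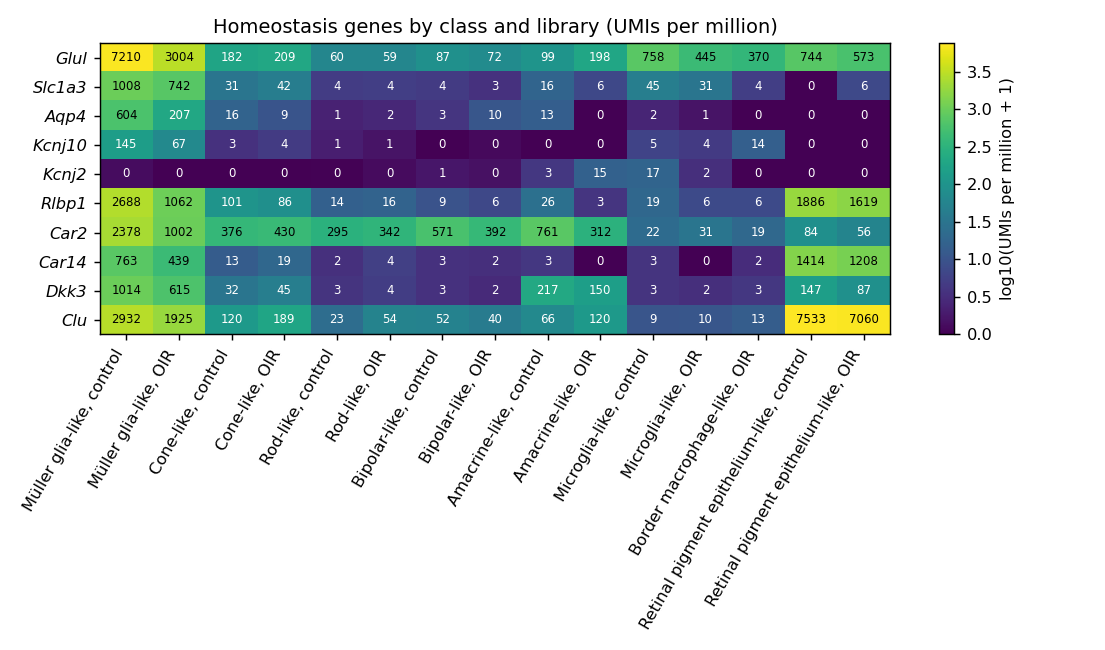
Level of the 10 genes in CPM (numbers; colour on a log10 scale after adding 1) in classes with 28 or more cells in a library. The first pair of columns, Müller glia-like cells, holds the highest value of most rows (Glul 7210 and 3004), Car2 is spread over neurons, and Clu, Car14 and Rlbp1 are also high in pigment epithelium-like cells.

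Among the classes with at least 50 cells, which leave out pigment epithelium-like cells, Müller glia-like cells were apart from the next class for 9 of the 10 genes in both libraries. For Kcnj2 the intervals of microglia-like cells and the next class overlap. For Glul in control the order ran from Müller glia-like to microglia-like and cone-like cells (182 CPM). Then came amacrine-like (98.9 CPM) and bipolar-like cells (87.4 CPM), whose intervals overlap, and rod-like cells (60.01 CPM). For Aqp4 in control, cone-like (16.2 CPM), amacrine-like, bipolar-like, microglia-like and rod-like cells (1.38 CPM) followed Müller glia, and each overlaps its neighbour in that order. Slc1a3 had microglia-like cells second in control (45.3 CPM), and in OIR cone-like (42.4 CPM) and microglia-like cells (31.3 CPM), which overlap. For Car2, each neighbouring pair in control was apart, down to microglia-like cells at 21.7 CPM.

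Between the libraries, few of these levels outside Müller glia differed. Microglia-like cells had 1 of 3 measured genes lower, Glul (log2 −0.77, −0.88 to −0.66), against 23.5% of all genes lower and 12.5% higher there. That call is not met within the clusters of the class, which hold different shares of each library. Glul was at 781 CPM (759 to 804) and 575 CPM (528 to 625) in the Selplg-led cluster, with 661 and 113 cells, and at 340 CPM (281 to 408) and 279 CPM (243 to 320) in the Ftl1-led cluster, with 160 and 274 cells. Neither pair is 1.5-fold apart, and the Ftl1-led intervals overlap. Clu was higher in rod-like cells, at 23.3 and 54.0 CPM (log2 1.21), and in cone-like cells, at 120 and 189 CPM (0.65), being 1 of 3 and 1 of 6 measured. Over all genes, 4.02% were higher and 1.31% lower in rod-like cells, and 2.87% higher and 1.65% lower in cone-like cells; 0 members were lower in either. In bipolar-like cells 0 of 3 were higher and 0 lower, against 4.08% and 6.28% of all genes. The Clu level in rod-like cells was 0.795% of its Müller level in control and 2.80% in OIR, beside marker medians of 0.479% and 1.02%. These shares rise in part because the Müller levels of Clu and of most markers were lower in OIR. The part of free RNA in the Clu difference was not tested.

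The genes whose levels over 12 class and library sums were most like those of the members were Cbr3 for Glul (Pearson r 0.977), Acot1 for Slc1a3 (0.982), Megf10 for Aqp4 (0.991) and Cav2 for Kcnj10 (0.996). For Rlbp1 it was Aldh1a1 (0.987), for Car2 Sept4 (0.990), for Car14 Sox2 (0.997), for Dkk3 Ptn (0.986) and for Clu Itm2a (0.983). Kcnj2, with few UMIs, had the lowest value, 0.932 with Man1a2. These are the highest of 3595 genes on the scale of log2(CPM + 10), and sums of 1 library share its depth and free RNA. In Müller glia-like cells Megf10 stood at 55.3 and 38.0 CPM (log2 −0.54), so its difference between the libraries was smaller than that of Aqp4, whereas Cbr3, at 91.2 and 40.9 CPM (−1.16), was near Glul.

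Other Müller glia programs moved alongside. Of 15 transcription factors of the lineage, all measured, 9 were lower and 0 higher, with a median log2 ratio of −0.72; Hes5 (182 and 70.1 CPM, −1.37), Sox8 (101 and 47.7 CPM, −1.08) and Lhx2 (440 and 231 CPM, −0.93) differed most. Of 11 gliosis genes, 10 were measured, 9 higher and 0 lower, with a median of 2.49. Gfap went from 27 to 794 UMIs (9.70 and 178 CPM, log2 4.202). Lcn2, a secreted carrier of iron-binding molecules, went from 5 to 930 UMIs (6.86, 5.63 to 8.49), and Serpina3n, a protease inhibitor gene, from 1 to 317 UMIs (7.63, 5.14 to 12.9). Of 10 hypoxia genes, all measured, 7 were higher and 0 lower, with a median of 0.82; Egln3 (2 and 105 UMIs, 5.04), Adm (10 and 405 UMIs, 4.66) and Bnip3 (67.9 and 218 CPM, 1.68) differed most. The 12 rod genes had a median of 0.31, with 0 past the limit in either direction. The gliosis and hypoxia genes were thus higher in the same class in which the homeostasis genes were lower.

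**Figure D5:**
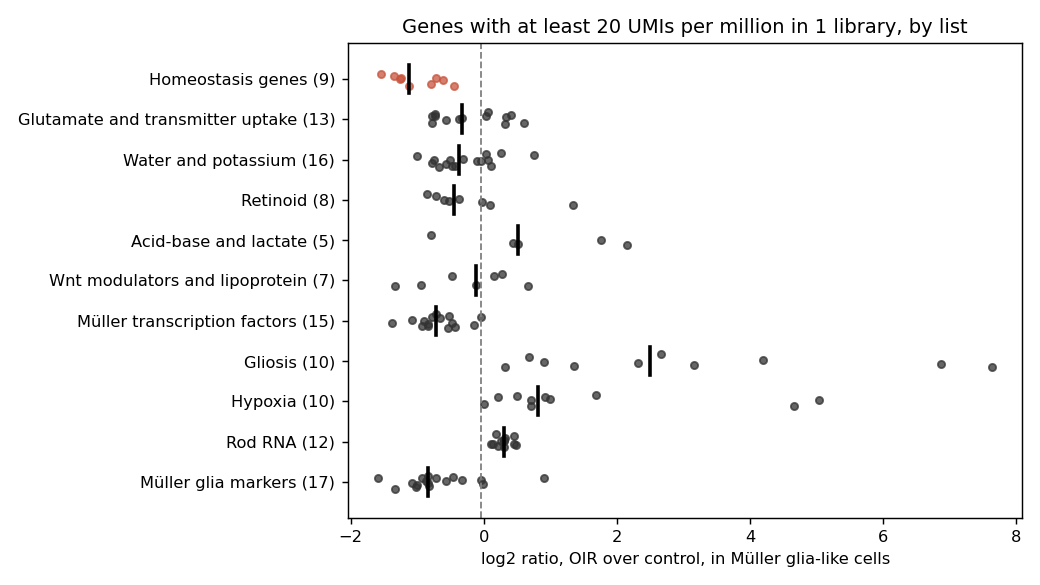
Log2 ratio of OIR over control in Müller glia-like cells for the 9 measured homeostasis genes (red) and the measured genes of 10 other lists (grey points, with the number of genes); black bars are medians and the dashed line is the median of all 6874 genes (−0.04). The homeostasis genes all lie left of the line with a median of −1.12, and the gliosis genes lie right of it with a median of 2.49.

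The mix of the homeostasis genes shifted as well. Their summed level, over the 9 genes with UMIs in both libraries, was 18742 and 9061 CPM. Of those UMIs, Glul made up 38.5% in control (38.1 to 38.9) and 33.2% in OIR (32.7 to 33.6), and Aqp4 3.22% and 2.28%. Clu went from 15.6% to 21.2% and Slc1a3 from 5.38% to 8.18%, so the genes with the smaller differences took a larger part of a smaller sum. These shares do not use the total of the class, which rod RNA enters, although Car2 and Clu also occur in other cells.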

How the data were processed

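Single cells of 2 libraries were analysed, control and OIR, each from the pooled retinas of 6 mice. The authors deposited raw UMI counts per gene and barcode, made with Cell Ranger 3.0.2 on build mm10 per the submitters' processing notes; how cells were called is not given in the sources used here. CPM and all ratios were computed here.

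The control library held 10826 barcodes and 50081145 UMIs, the OIR library 7283 and 49773742. Kept barcodes had 500 genes or more and no more than 10% mitochondrial UMIs (9454 and 6516). Scrublet's automatic limit marked 0 and 1 barcodes, so the highest scores were removed at 0.8% per 1000 barcodes (872 and 380 of those kept), which left 8582 and 6136 cells with medians of 1654 and 2810 UMIs. Cells were clustered in scanpy 1.11.5 without the 10 genes (2000 variable genes, 30 components, 20 neighbours, Leiden resolution 1) and without integration. Clusters took the name of the class whose markers had the highest mean log2 fold, if that was 0.5 or more and 3 or more markers were detected in 10% of cells, unless another class had more markers among the 10 leading genes. Müller glia-like cells were clustered again, and subclusters with 3 or more markers of another class among their leading genes left the class. These naming limits were set with the data at hand. No name was given to 289 control and 782 OIR cells.

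Counts were summed per class and library. Ratios have exact conditional binomial intervals, CPM exact Poisson intervals and shares exact Clopper-Pearson intervals (95%, counting error only); a count of 0 allows 3 counts. With 1 library per group no test was made. Genes with at least 20 CPM in 1 library count as measured, and as higher or lower at 1.5-fold with an interval excluding 0. For the rod profile, the rod list's share in Müller glia-like cells was divided by its share in rod-like cells of the same library. Poisson counts were simulated for the comparison of OIR with control in Müller glia-like cells (6874 genes). In these, 50 of 50 genes made 2-fold higher and 50 of 50 made 2-fold lower were found, as were 26 of 6674 unchanged genes. The intervals assume the same Poisson model, and the simulation held no spread between libraries and no free RNA. It therefore gives no error rate for the measured comparison.

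The genes named are the 10 members, the most similar gene of each, and the 3 measured genes with the largest ratio in each list; some of these are not reported here. Members, lists and markers were chosen with earlier results of these data known. Gene positions are from GENCODE M21 (GRCm38). Glul overlaps Teddm2 and Car14 overlaps Aph1a on the opposite strand. Alternatives covered scaling, weighting, cell filter, doublets, resolution, depth, low-value filter and fold, and 6 more on rod RNA and subclusters were added after seeing the data.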

Additional observations from a re-analysis of the deposited data

Results flagged for a closer look

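For 11 pairs of gene and class, the ratio of OIR over control outside Müller glia-like cells lay on the other side of 0 from that in Müller glia-like cells, with both counting intervals excluding 0. The difference between classes was not tested, since each group is 1 library. In rod-like cells the log2 ratios were 0.22 for Car2, 0.87 for Car14 (2.41 and 4.39 CPM) and 1.21 for Clu. Cone-like cells had 0.20 for Glul, 0.44 for Slc1a3, 0.19 for Car2, 0.57 for Car14 (12.6 and 18.7 CPM), 0.52 for Dkk3 and 0.65 for Clu. In bipolar-like cells Aqp4 was at 1.75, from 8 and 43 UMIs, and in microglia-like cells Car2 was at 0.50, with an interval of 0.01 to 0.97. In Müller glia-like cells the same genes stood between −1.55 (Aqp4) and −0.44 (Slc1a3). Beside these values, the median Müller glia marker in cone-like cells was at 3.12% of its Müller level in control and 6.45% in OIR. In rod-like cells it was at 0.479% and 1.02%. Each share is of the Müller level in the same library, and that level was itself lower in OIR (median log2 ratio −0.83 over the markers). Such shares can therefore rise without a higher level outside the class. The part of free RNA in these ratios was not tested.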

How the results depend on the processing

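No paired analysis was possible because each group has 1 library. Glul, Aqp4, Kcnj10, Rlbp1 and Car2 were at least 1.5-fold lower in OIR under each alternative on the whole class, and no gene was higher. The count of 8 lower genes became 5 with doublet calls kept, 5 at a 2-fold limit and 5 in cells with at most 1% of UMIs from the rod list; these were the same 5 genes. With the rod profile subtracted (no interval) 5 were past 1.5-fold, with every cell thinned to 1500 UMIs 6, and 7 to 9 under the other alternatives on the whole class, with 0 higher throughout. Within the subcluster led by Enpp2, chosen after seeing the data, the sign changed for Car14 (0.34) and Dkk3 (0.072), and Slc1a3, under the fold limit in the whole class, was at 0.31. The stricter cell filter (at least 1000 genes, at most 5% mitochondrial) left 31 control and 160 OIR cells, with Glul at −1.79 and Aqp4 at −2.15. Counts over all genes (550 higher, 856 lower) were 330 and 444 with doublet calls kept, 1059 and 1471 with no filter on low values, 301 and 401 at 50 CPM, 204 and 272 at 2-fold, and 943 higher under the stricter cell filter. Where an alternative uses fewer cells or genes, that is part of its construction; otherwise the cause was not tested. Shares of cells with a UMI moved with the thinning depth, to 20.8% at 1000 and 38.7% at 2500 UMIs for Aqp4 in OIR, and to 52.4% and 72.3% in control. Kcnj2 had 1 and 0 UMIs in the class, too few for a ratio. At another resolution the naming of myeloid clusters changed, so the Kcnj2 values are given by cluster.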
